A study of Mus musculus with 21 samples.

Results

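Basement membrane glycoproteins and laminins were followed here as 9 genes. They are the laminin chains Lama1, Lama5, Lamb1, Lamb2 and Lamc1, the nidogens Nid1 and Nid2, the proteoglycan perlecan (Hspg2) and the collagen-binding glycoprotein Sparc. The members were taken by gene symbol from 78317 gene rows, each symbol matched 1 of them, and all 9 were among the 18901 genes tested. All 9 are protein-coding. On the mouse genome build mm10 with GENCODE M21 annotation, Lama1 lies at chr17:67697259-67822647 on the plus strand and Lama5 at chr2:180176373-180225859 on the minus strand. Lamb1 lies at chr12:31265234-31329644 (plus), Lamb2 at chr9:108479736-108490530 (plus) and Lamc1 at chr1:153218922-153332786 (minus). Nid1 lies at chr13:13437551-13512269 (plus), Nid2 at chr14:19751265-19811787 (plus), Hspg2 at chr4:137468769-137570630 (plus) and Sparc at chr11:55394500-55423183 (minus).

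RNA was sequenced from E14 cells, an established line of mouse embryonic stem (ES) cells. The 21 libraries fell into 7 groups of 3. The ES group was untreated cells in standard culture, and the same line received either vehicle or pyridoxine, a form of vitamin B6, at 20 µM (VB6 below) and was sampled after 3, 5 or 7 days in the other 6 groups. The series is titled as a study of vitamin B6 in endoderm differentiation. The labels name no genetic change, do not say how differentiation was started, and leave unsaid whether a group's 3 libraries stem from separate cultures, so p-values reflect the spread among these libraries, which may be technical. In bulk RNA of this kind, fewer cells that make a transcript and less transcript per cell cannot be told apart.

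A basement membrane is the thin sheet of matrix under an epithelium. Laminin forms its first network, as a trimer of 1 alpha, 1 beta and 1 gamma chain, and nidogens and perlecan connect that network to the second one, of collagen IV. Laminin-111 (Lama1, Lamb1 and Lamc1) is the form known from the earliest embryo, where primitive endoderm and later parietal endoderm secrete it in bulk, while Lama5 and Lamb2 are the alternative alpha and beta chains of laminins that take over in later tissues. Sparc binds collagen IV and is known for its high level in parietal endoderm.

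The sequence before the start site is shown for 4 members, because their counts behaved differently below: Lamb1, a chain of laminin-111, Nid1, which fell most between ES and day 3, and Lama5 and Hspg2, whose day 5 differences shrank in a fit corrected for GC content and transcript length together. The day 5 difference of Lamb2, not shown, shrank about as much, and those of Lamb1 and Nid1 shrank by less. A link between these sequences and the counts was not tested. The promoter table, from RefSeq on GRCm38.p6 (the assembly of mm10), held 6 of the 9 members, all but Lama1, Lamc1 and Nid2. Each run is 5′ to 3′ on the gene's strand and ends before the first exon in GENCODE M21. Capitals mark the GC box GGGCGG or its other strand CCGCCC, which occurs in 32.7% of all 32851 windows of 250 bases before a start in the table. The runs cover chr12:31265043-31265233 (plus) for Lamb1, chr13:13437352-13437550 (plus) for Nid1, chr2:180225860-180226109 (minus) for Lama5 and chr4:137468553-137468768 (plus) for Hspg2.
Lamb1: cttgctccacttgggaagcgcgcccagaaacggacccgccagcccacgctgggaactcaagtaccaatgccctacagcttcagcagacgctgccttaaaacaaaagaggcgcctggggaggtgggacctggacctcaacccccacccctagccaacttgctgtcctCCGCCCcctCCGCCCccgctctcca
Nid1: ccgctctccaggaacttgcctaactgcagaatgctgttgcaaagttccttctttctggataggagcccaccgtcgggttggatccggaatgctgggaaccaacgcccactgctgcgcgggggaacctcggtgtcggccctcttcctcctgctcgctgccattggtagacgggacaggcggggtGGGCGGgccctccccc
Lama5: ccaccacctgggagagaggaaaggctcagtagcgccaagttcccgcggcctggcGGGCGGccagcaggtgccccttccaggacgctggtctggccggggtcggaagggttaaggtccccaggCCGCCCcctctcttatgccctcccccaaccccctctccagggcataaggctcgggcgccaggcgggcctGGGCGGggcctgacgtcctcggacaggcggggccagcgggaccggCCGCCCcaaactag
Hspg2: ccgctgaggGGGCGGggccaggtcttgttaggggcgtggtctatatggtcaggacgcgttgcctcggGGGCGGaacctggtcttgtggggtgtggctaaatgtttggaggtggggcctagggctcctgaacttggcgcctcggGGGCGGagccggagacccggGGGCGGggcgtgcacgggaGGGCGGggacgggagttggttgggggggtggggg

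Over the whole window of 250 bases, Hspg2 held 5 GC boxes, Lama5 held 4, Lamb1 held 2 and Nid1 held 1, and neither Lamb2 nor Sparc held any. The Sparc window (chr11:55420081-55420330) lies wholly inside the GENCODE span of its gene. Only 124 bases of the Lamb2 window lie before the GENCODE start, against 191 for Lamb1, 199 for Nid1, 216 for Hspg2 and 250 for Lama5. The windows are therefore not alike in position. The windows of Lama5 and Hspg2 had a GC content of 72.4% and 70.0%, against 43.6% for Lamb2, 54.0% for Sparc and a median of 52.4% over all windows. Neither the GATA letters AGATAA (other strand TTATCT, in 9.99% of all windows) nor the SOX letters ACAATG (other strand CATTGT, in 10.7%) occurred in the 6 windows. The transcripts follow a partly different order: the longest annotated transcript had a GC content of 60.9% for Hspg2, 59.9% for Lama5 and 58.8% for Lamb2, and of 50.4% (Nid1) to 54.6% (Nid2) for the other 6.

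Total expected counts (estimated read counts per gene) ran from 15882380 to 21629730 per library, and the smallest count of a member was 403, for Lamb2 in a VB6 day 3 library. The ES libraries matched their label: 8 ES cell markers, among them Pou5f1 and Nanog, summed to 5049 to 5388 CPM (counts scaled to library size by the TMM method) in ES, 2529 to 2797 at vehicle day 3 and 443 to 483 at vehicle day 7. The libraries of 2 groups stood apart in library make-up. The fragment length implied by the deposited values was 227 ± 8.69 nt (mean ± SD, n = 3) for the vehicle libraries of day 5 and 266 ± 7.77 nt for the VB6 libraries of day 7, while the means of the remaining 5 groups lay between 307 and 312 nt. The mean GC content of the counted transcripts was lowest in the vehicle day 5 libraries, at 47.1 ± 0.140%, while at VB6 day 7, with 48.2 ± 0.179%, it overlapped that of the VB6 day 3 libraries (48.3 ± 0.0203%). The mean share of counts from mitochondrial genes was highest in the 2 groups with short fragments, at 4.33% and 3.32%. That from ribosomal protein genes was lowest there, at 3.49% and 3.39%, against 5.72 to 6.90% in the remaining groups. Short fragments therefore fall on the vehicle side at day 5 and on the VB6 side at day 7. Values from a fit that removes, in each library, a smooth trend with transcript GC content and length are called corrected. They are given beside the members' values they alter most, and as counts for the gene lists.

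**Figure D1:**
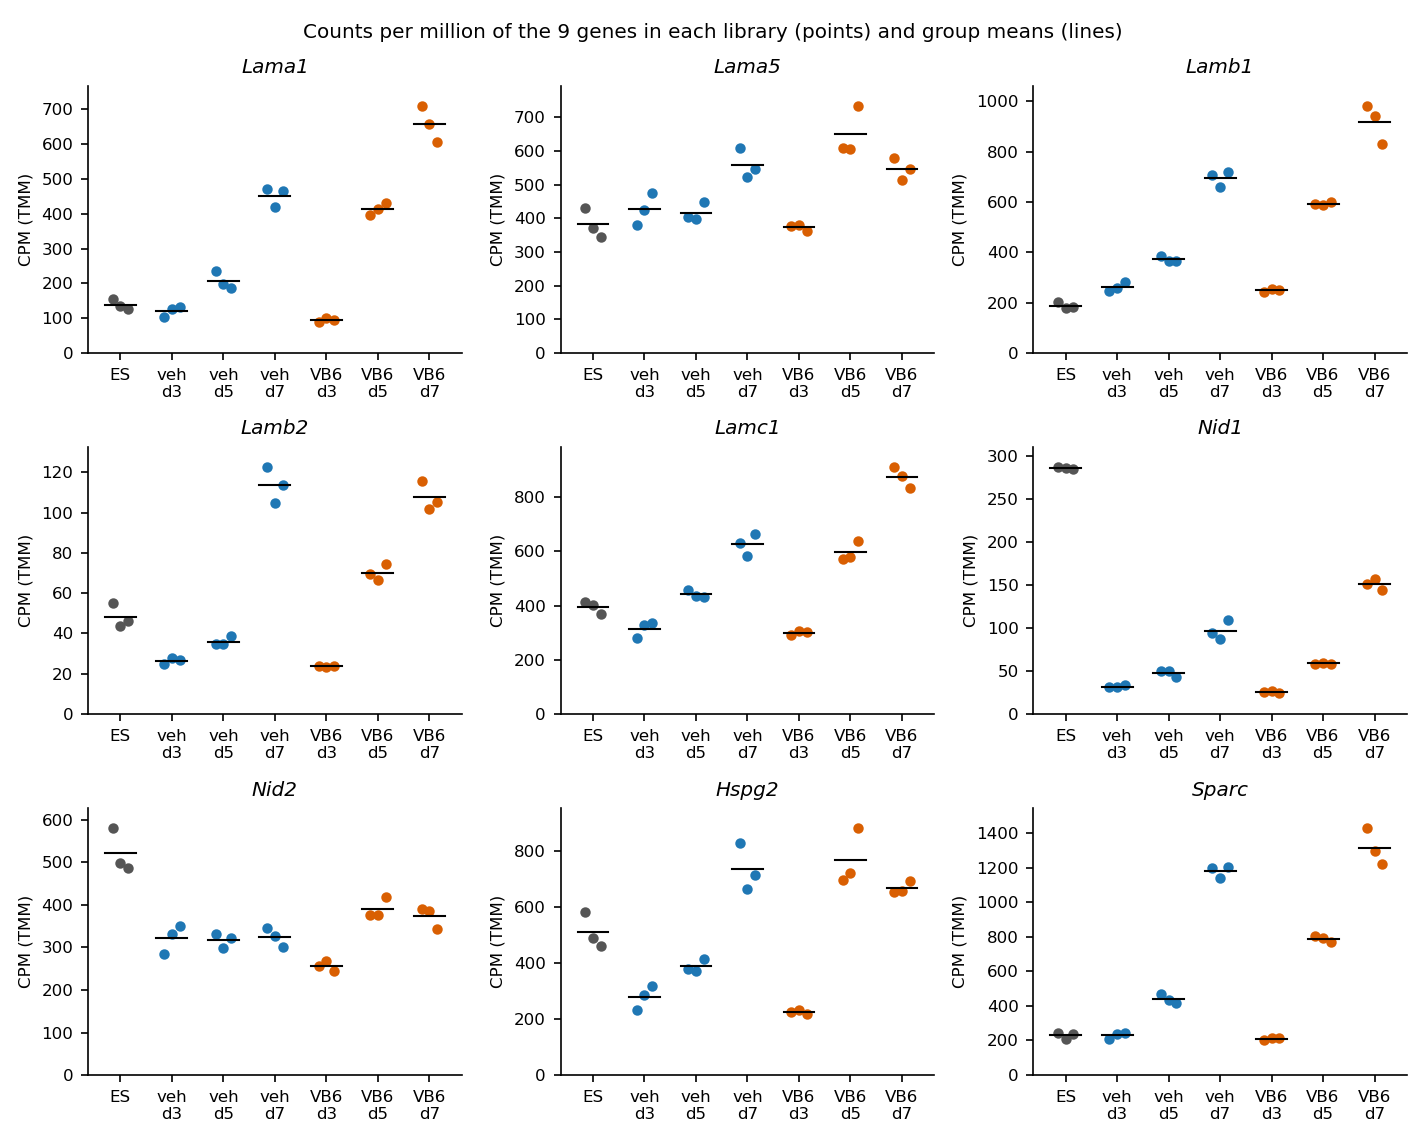
CPM of each of the 9 genes (vertical axes, from 0) in the 21 libraries (points) with group means (lines), in ES (grey), vehicle (blue) and VB6 (orange) at days 3, 5 and 7. Nid1 stands near 286 CPM in ES and between 24.3 and 157 CPM in all other libraries, while Sparc, Lama1, Lamb1 and Lamc1 climb from day 3 to day 7 in both arms.

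In ES cells the 9 genes were already transcribed. Per transcript length, in TPM (depth- and length-scaled transcript units), the order in ES was Nid2 (178 ± 16.3, mean ± SD, n = 3), Sparc (165 ± 23.8), Hspg2 (115 ± 24.1), Lamc1 (98.9 ± 6.48), Lama5 (93.2 ± 13.7), Nid1 (62.2 ± 3.66), Lamb1 (43.6 ± 4.16), Lama1 (34.8 ± 10.3) and Lamb2 (18.1 ± 3.96). The libraries of Nid2 and Sparc overlapped, as did those of Hspg2 and Lamc1, of Lamc1 and Lama5, and of Lamb1 and Lama1, and the other neighbours in this order did not overlap. At vehicle day 7 the order was Sparc (881 ± 56.7 TPM), Lamb1 (169 ± 9.09), Lamc1 (156 ± 6.92), Hspg2 (133 ± 12.8), Lama5 (122 ± 3.25), Nid2 (107 ± 13.6), Lama1 (107 ± 22.1), Lamb2 (42.7 ± 4.65) and Nid1 (21.9 ± 2.55). Here the libraries of Lamb1 and Lamc1 overlapped, as did those of Hspg2 and Lama5, of Lama5 and Nid2, and of Nid2 and Lama1. Sparc thus stood first by a wide margin, Lamb1 had moved from seventh place to the second by its mean, and Nid1 had become the scarcest. The ratio of the highest to the lowest group mean of CPM was 11.2 for Nid1, 6.96 for Lama1 and 6.24 for Sparc, and only 1.74 for Lama5 and 2.04 for Nid2.

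The first comparison sets vehicle day 3 against ES culture. The nidogens, perlecan and Lamb2 fell, Lamc1 fell by less, Lamb1 rose, and Lama1 and Lama5 moved little. Nid1, which binds laminin to collagen IV, fell most: its libraries held 288, 287 and 285 CPM in ES and 31.0, 31.2 and 33.5 CPM at day 3. That is 8.97-fold lower, a log2 fold change of -3.16 ± 0.07 (SE; edgeR quasi-likelihood test, Benjamini-Hochberg adjusted p = 5.8e-20). Its paralog Nid2 fell by far less, from 582, 498 and 488 CPM to 285, 332 and 349 CPM, with log2 -0.70 ± 0.08 (edgeR adjusted p = 4.4e-08). Neither nidogen's groups overlapped.

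Perlecan, the heparan sulphate proteoglycan of the membrane, held 582, 489 and 459 CPM in ES and 232, 284 and 318 CPM at vehicle day 3 (log2 -0.88 ± 0.10, edgeR adjusted p = 1.0e-07). Lamb2 held 55.3, 43.6 and 46.4 CPM and then 25.0, 27.6 and 26.7 CPM (log2 -0.87 ± 0.08, edgeR adjusted p = 4.0e-09). Both genes' day 3 libraries lay wholly below the ES libraries. Lamb1, the beta chain of laminin-111, went the other way, from 202, 178 and 183 CPM to 246, 259.7 and 282 CPM (log2 0.49 ± 0.06, edgeR adjusted p = 3.1e-07). Lamc1, the gamma chain shared by both kinds of laminin, held 412, 402 and 368 CPM and then 279.7, 328 and 334 CPM, without overlap (log2 -0.33 ± 0.07, edgeR adjusted p = 0.00013). For Lama1 (log2 -0.20 ± 0.09, edgeR adjusted p = 0.059), Lama5 (0.16 ± 0.09, edgeR adjusted p = 0.11) and Sparc (-0.01 ± 0.07, edgeR adjusted p = 0.89) the libraries of the groups overlapped and no change was called. Lama1 was called lower in the corrected fit (-0.30 ± 0.08), with or without a replicate block, and by DESeq2. In edgeR it was also called lower with DESeq2 size factors, upper quartile scaling, no filter or a minimum mean of 5 CPM. The same held when ES replicate 3, vehicle day 3 replicate 3, or the vehicle day 5 and VB6 day 7 groups together were left out. Lama5 was called higher with no filter, and when ES replicate 1 or vehicle day 3 replicate 1 was left out.

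In all, 1 of 9 members was higher and 5 were lower, where 33.1% of all genes tested were called higher and 31.8% lower, and their median log2 fold change was -0.33 against 0.01 over all genes. Other genes of the basement membrane divided in the same step. Of 8 listed collagens 5 were tested and all 5 were higher (median log2 0.73), with Col4a1 and Col4a2, the chains of the main collagen IV trimer, at log2 0.60 ± 0.11 and 0.73 ± 0.11. Of 11 laminin and perlecan receptors tested, 7 were lower and 1 was higher (median -0.52), and Bcam, a receptor for the Lama5 chain, was lower by log2 -1.74 ± 0.10. Among 14 other glycoproteins and proteoglycans, 7 were lower, fibronectin (Fn1) among them at log2 -1.13 ± 0.07, and 6 were higher (median -0.06). All 10 listed endoderm regulators were higher (median 1.29), Dab2 by log2 3.76 ± 0.08. The corrected fit gave the same counts for collagens, receptors and endoderm regulators, and called 7 other glycoproteins higher and 6 lower.

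From vehicle day 3 to day 7 all members but Nid2 rose in counts. Sparc, Lamb2 and Lama1 gained most, and Nid1 recovered part of what it had lost. The log2 gain from day 5 to day 7 was larger than that from day 3 to day 5 in each of these 8 members uncorrected, but only for Lamb1, Lamb2 and Nid1 in the corrected fit. The difference between the 2 steps was not tested. Sparc held 211, 236 and 242 CPM at day 3, 468, 437 and 414 CPM at day 5 and 1197, 1140.2 and 1206 CPM at day 7. No library of a later day was as low as any of an earlier one, and the change from day 3 to day 7 was 5.15-fold (log2 2.36 ± 0.07, edgeR adjusted p = 9.1e-19).

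Lama1, the alpha chain that defines laminin-111, rose from 105, 126 and 131 CPM through 237, 199 and 186 CPM to 470.2, 420.2 and 467 CPM, 3.75-fold from day 3 to day 7 (log2 1.91 ± 0.09, edgeR adjusted p = 1.2e-14). Its partner Lamb1 rose from 246, 259.7 and 282 CPM through 386, 367 and 367 CPM to 705, 661 and 717 CPM (log2 1.40 ± 0.06). Lamc1 rose from 279.7, 328 and 334 CPM through 458, 435 and 431 CPM to 629, 584 and 665 CPM (log2 0.99 ± 0.07). The 3 chains of laminin-111 therefore rose together, the alpha chain most and the gamma chain least, and in none of them did the libraries of consecutive days overlap.

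Lamb2, the alternative beta chain, stayed scarce in absolute terms, with 25.0, 27.6 and 26.7 CPM, 34.8, 34.6 and 38.6 CPM and 123, 105 and 113 CPM at the 3 days, but rose 4.30-fold (log2 2.11 ± 0.08, edgeR adjusted p = 3.0e-16). Lama5, the alternative alpha chain, held 380.3, 426 and 477 CPM, 404, 397 and 449 CPM and 608, 524 and 546 CPM, a rise of log2 0.39 ± 0.09 (edgeR adjusted p = 0.00047). That rise was not called in the corrected fit (0.07 ± 0.04, edgeR adjusted p = 0.19). Perlecan rose from 232, 284 and 318 CPM through 379, 370.0 and 414 CPM to 829, 662 and 712 CPM (log2 1.40 ± 0.10, corrected 1.15 ± 0.05). Between days 5 and 7 alone its gain was log2 0.92 ± 0.10 uncorrected and 0.23 ± 0.05 corrected.

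The 2 nidogens parted. Nid1 rose from 31.0, 31.2 and 33.5 CPM through 50.4, 49.8 and 43.2 CPM to 94.3, 87.1 and 109 CPM (3.03-fold, log2 1.60 ± 0.07, edgeR adjusted p = 3.7e-15), which left it below every ES library. Nid2 held 285, 332 and 349 CPM, 331, 299 and 321 CPM and 345, 327 and 301 CPM, with overlapping libraries and a log2 fold change of 0.01 ± 0.08 whose 95% interval ran from -0.14 to 0.16. In the corrected fit Nid2 was lower at day 7 than at day 3 (-0.29 ± 0.06, edgeR adjusted p = 7.0e-05).

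From day 3 to day 5, 7 of 9 members were higher (all but Lama5 and Nid2), against 31.9% of all genes. From day 5 to day 7, 8 of 9 were higher (all but Nid2), against 35.2%. The corrected fit turned Lama5 (-0.24 ± 0.04) and Nid2 (-0.42 ± 0.06) lower in this second step and Lama5 higher in the first (0.30 ± 0.04). Over the whole interval 8 of 9 were higher, against 34.3% of all genes called higher and 33.1% called lower, with a median log2 of 1.40 against -0.01 over all genes. In the corrected fit 7 of 9 were higher and 1 (Nid2) was lower, against 34.6% and 37.2%. The 3 steps share libraries and are not independent.

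The other parts of the basement membrane rose over the same days. Of 5 collagens tested 4 were higher from day 3 to day 7 (median log2 2.35), with Col4a1 going from 308 to 1383 CPM (log2 2.17 ± 0.12) and Col4a2 from 188 to 958 CPM (log2 2.35 ± 0.11). Among the other glycoproteins 11 of 14 were higher (median 1.43), including Agrn, the proteoglycan agrin (log2 1.79 ± 0.07), and Npnt, the integrin ligand nephronectin (log2 3.18 ± 0.15). Of the receptors 9 of 11 were higher and 1 was lower (median 1.04): Itga3, a laminin-binding integrin chain, went from 51.4 to 209 CPM, and its partner Itgb1 from 232 to 519.7 CPM. Among enzymes that fold and crosslink matrix 9 of 13 were higher (median 0.71), among them Serpinh1, the collagen chaperone (log2 2.43 ± 0.08). Of proteases and their inhibitors 9 of 11 were higher (median 1.87), with Adamts1 (log2 3.47 ± 0.13) and the inhibitor Timp2 (log2 2.86 ± 0.15). The numbers called higher were the same in these 5 lists in the corrected fit, and 1 collagen, 2 enzymes and 1 protease or inhibitor were called lower. Of 5 other laminin chains tested, 3 were higher and 1 was lower (median 1.02), with the same counts in the corrected fit. The lower one, Lama3, fell by 2.41 ± 0.20 on the log2 scale.

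Markers of several cell types moved over the same days. Summed CPM of 8 visceral endoderm markers (such as Afp, Ttr and Apoa1) ran from 33.3 to 38.5 in ES, where Afp was at 0, to 503 to 584 at vehicle day 3 and 4238 to 4512 at day 7, with 8 of 8 higher from day 3 to day 7. The 8 parietal endoderm markers summed to 102 to 109.6 CPM at day 3 and 224 to 250.1 CPM at day 7, with 6 of 8 higher and 1 lower. The 6 smooth muscle markers summed to 24.5 to 29.6 CPM at day 3 and 443 to 558 CPM at day 7 with 6 of 6 higher. The 8 fibroblast markers summed to 21.4 to 24.4 CPM and 422 to 596 CPM, with 4 of 6 tested higher and 2 lower and Lum at 0 at day 3. The 8 endothelial markers summed to 30.0 to 30.7 CPM and then 10.1 to 10.6 CPM, with 1 of 6 tested higher, 3 lower and Emcn at 0 in both groups. The part of these cell types in the rise of the basement membrane genes was not tested.

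**Figure D2:**
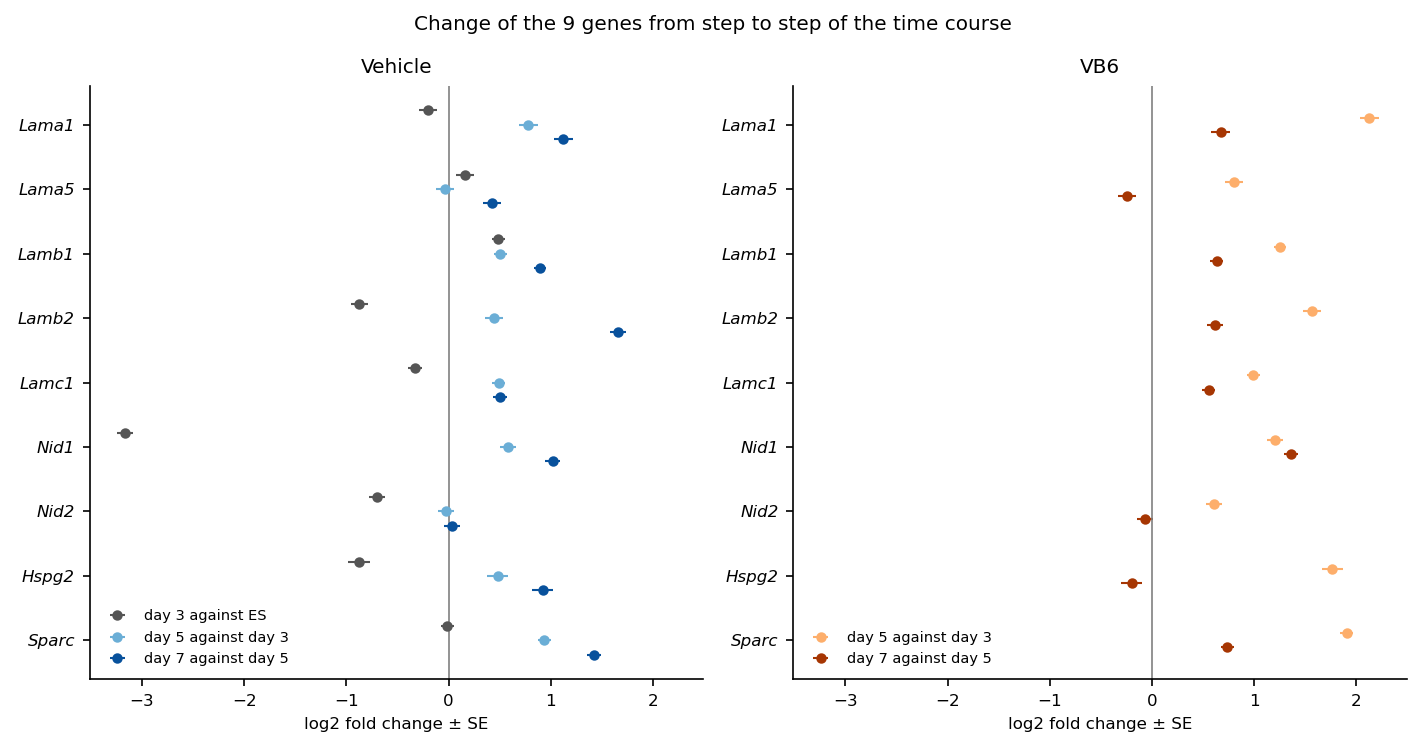
Log2 fold change with SE (horizontal axis) of each gene in the steps of the vehicle time course (left, with the step from ES in grey) and of the VB6 time course (right). Nid1 lies at -3.16 in the step from ES, and in the VB6 arm every gene lies to the right of 0 from day 3 to day 5, where Lama1 is at 2.13.

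With VB6 every member rose between days 3 and 5, and the laminin-111 chains, Nid1, Lamb2 and Sparc went on rising to day 7. From VB6 day 3 to day 5 9 of 9 members were higher, against 29.9% of all genes, with a median log2 of 1.25 against 0.02. Lama1 went from 88.7, 101 and 94.3 CPM to 397, 414 and 431 CPM (4.37-fold, log2 2.13 ± 0.09, edgeR adjusted p = 7.7e-15). Sparc went from 205, 214 and 213 CPM to 805, 794 and 768 CPM (log2 1.90 ± 0.07). Perlecan went from 225, 233 and 219 CPM to 697, 721 and 882 CPM (log2 1.77 ± 0.11). In each of them every day 5 library stood far above every day 3 library. Both groups had long fragments, and all 9 calls held in the corrected fit, with Nid2 smallest at log2 0.61 ± 0.08 uncorrected and 0.28 ± 0.06 corrected.

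From VB6 day 5 to day 7, 6 members were higher, against 27.3% of all genes, and 1 was lower, against 27.3%. Nid1 gained most, from 58.3, 59.9 and 58.3 CPM to 151, 157 and 144 CPM (log2 1.36 ± 0.07, edgeR adjusted p = 2.8e-13). The 3 laminin-111 chains rose by log2 0.67 ± 0.09 (Lama1), 0.63 ± 0.06 (Lamb1) and 0.55 ± 0.06 (Lamc1), Lamb2 by 0.62 ± 0.08 and Sparc by 0.74 ± 0.06. Lama5 was lower by log2 -0.25 ± 0.09 (edgeR adjusted p = 0.020), a call lost in the corrected fit (-0.08 ± 0.04) and without VB6 day 5 replicate 3 or VB6 day 7 replicate 2. No change was called for Nid2 (-0.06 ± 0.08) or Hspg2 (-0.20 ± 0.10, edgeR adjusted p = 0.10). All 13 listed folding and crosslinking enzymes were higher in this step, with Plod2, a lysyl hydroxylase of collagen, at log2 1.25 ± 0.08 and a list median of 0.56 against -0.01 over all genes. Of 14 other glycoproteins 12 were higher and 1 was lower, with Fn1 at log2 1.47 ± 0.07. In the corrected fit 13 enzymes and 12 of these glycoproteins were higher and 2 glycoproteins were lower.

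At day 3 the differences between VB6 and vehicle were small. The estimate was below 0 for all 9 members, and in the corrected fit for 6 of them, and 3 of 9, Lama1, Nid1 and Nid2, were called lower, against 2.77% of all genes. Lama1 held 88.7, 101 and 94.3 CPM with VB6 and 105, 126 and 131 CPM with vehicle (log2 -0.35 ± 0.09, edgeR adjusted p = 0.034). Nid1 held 25.9, 26.5 and 24.3 CPM and 31.0, 31.2 and 33.5 CPM (log2 -0.32 ± 0.08, edgeR adjusted p = 0.020). Nid2 held 255, 268 and 245 CPM and 285, 332 and 349 CPM (log2 -0.33 ± 0.08, edgeR adjusted p = 0.018).

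The groups of these 3 genes did not overlap, but their spread was wider with vehicle than with VB6. The calls rested on few libraries: without vehicle day 3 replicate 2 or 3, or without VB6 day 3 replicate 1 or 3, edgeR called 0 of 9, with 3 to 4 of 9 at an unadjusted p under 0.05, while DESeq2 on all libraries called 3. In the corrected fit Lama1 was not called (edgeR adjusted p = 0.051) and the 2 nidogens were. Among the other lists the calls at day 3 were also mainly lower: 2 of 5 collagens (Col4a1 at log2 -0.51 ± 0.11 and Col4a2 at -0.44 ± 0.10), 3 of 13 enzymes, 1 of 14 other glycoproteins (Fn1, log2 -0.37 ± 0.07) and 1 of 11 receptors (Itgb4, log2 -0.60 ± 0.14). The corrected fit called 1 collagen and 5 enzymes lower, and higher calls appeared in it for 1 other glycoprotein and 2 receptors (Col4a1 stood at -0.37 and Col4a2 at -0.23). Klf6 was the 1 endoderm regulator of 10 called higher (log2 0.36 ± 0.09), where the corrected fit called 2 higher and 1 lower. Over all genes, 281 of 18901 were called higher at day 3, and the corrected fit called 490 of 17418 higher and 701 lower. ES cell markers summed to 2328 to 2385 CPM with VB6 and 2529 to 2797 CPM with vehicle (3 of 8 lower), while parietal endoderm markers summed to 112 to 127 and 102 to 109.6 CPM (0 of 8 called) and visceral endoderm markers to 530.1 to 581 and 503 to 584 CPM (3 of 8 higher). Their part in these differences was not tested.

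At day 5 all 9 members were higher with VB6 than with vehicle, against 31.2% of all genes called higher and 25.5% called lower, with a median log2 of 0.66 against 0.05. The vehicle libraries of this day have the short fragments, and in the corrected fit 7 of 9 were higher, against 19.1%, with a median of 0.31 against -0.02. On the deposited TPM, tested with limma on log2(TPM + 0.5), Lama1, Lamb1, Hspg2 and Sparc were called higher and Lama5 was called lower. By TPM 3018 of 18901 genes were called higher and 6621 lower, with a median of -0.16 over all genes. Lama1 differed most: it held 397, 414 and 431 CPM with VB6 and 237, 199 and 186 CPM with vehicle (1.99-fold, log2 0.996 ± 0.09, edgeR adjusted p = 3.3e-09). The corrected value was 0.72 ± 0.08. Sparc held 805, 794 and 768 CPM and 468, 437 and 414 CPM (log2 0.84 ± 0.07, edgeR adjusted p = 3.3e-10; corrected 0.50 ± 0.06). Every VB6 library of both genes stood above every vehicle library.

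The partners of Lama1 in laminin-111 also differed at day 5. Lamb1 held 592, 586 and 598 CPM with VB6 and 386, 367 and 367 CPM with vehicle (log2 0.66 ± 0.06; corrected 0.43 ± 0.06). Lamc1 held 572, 579 and 637 CPM and 458, 435 and 431 CPM (log2 0.43 ± 0.07; corrected 0.19 ± 0.05). Nid1 held 58.3, 59.9 and 58.3 CPM and 50.4, 49.8 and 43.2 CPM (log2 0.30 ± 0.07; corrected 0.23 ± 0.07). These 3 differences passed the test in both fits and shrank in the corrected one.

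Perlecan, Lamb2 and Lama5 were the members whose day 5 difference changed most with the correction, which removes trends with GC content and length together. Perlecan held 697, 721 and 882 CPM with VB6 and 379, 370.0 and 414 CPM with vehicle, log2 0.98 ± 0.10 uncorrected and 0.31 ± 0.05 corrected. Lamb2 held 69.7, 66.3 and 74.6 CPM and 34.8, 34.6 and 38.6 CPM, log2 0.96 ± 0.08 uncorrected and 0.34 ± 0.06 corrected. Lama5 held 609, 607 and 735 CPM and 404, 397 and 449 CPM, log2 0.64 ± 0.09 uncorrected and 0.02 ± 0.04 corrected, and lost its call (edgeR adjusted p = 0.81). Nid2 also lost its call, with log2 0.30 ± 0.08 uncorrected and -0.10 ± 0.06 corrected (edgeR adjusted p = 0.20).

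Part of the other basement membrane genes were higher with VB6 at day 5 as well, fewer and by less in the corrected fit. Over all genes tested, 31.2% were called higher and 25.5% lower. Col4a2 stood at log2 1.61 ± 0.10 (corrected 0.90), Col4a1 at 1.35 ± 0.11 (corrected 0.82) and Col18a1 at 1.11 ± 0.11 (corrected 0.37), which with 1 more collagen made 4 of 5 (median 1.11). The lists counted 8 of 13 folding enzymes higher and 1 lower (Serpinh1, log2 1.25 ± 0.07 and corrected 0.66, among the higher; median 0.31). They counted 7 of 14 other glycoproteins higher (median 0.23), 9 of 11 proteases and inhibitors higher (Mmp14, log2 0.85 ± 0.12 and corrected 0.42; median 0.59), and 5 of 11 receptors higher with 2 lower (median 0.27). Of 10 endoderm regulators 7 were higher (median 0.42), with Sox17 at log2 1.63 ± 0.13 (corrected 1.31). The corrected fit called 3 collagens higher, 6 enzymes higher and 3 lower, and 3 other glycoproteins higher and 2 lower. It called 4 proteases or inhibitors higher and 1 lower, 4 receptors higher and 2 lower, and 5 endoderm regulators higher. Over all 17418 genes in that fit, 3320 (19.1%) were called higher and 3318 lower. The 3 of 14 other glycoproteins called higher lay near that share. Parietal endoderm markers summed to 192 to 215 CPM with VB6 and 148 to 173 CPM with vehicle (4 of 8 higher, 1 lower), visceral endoderm markers to 2317 to 2699.6 and 2023 to 2591 CPM (6 of 8 higher), and smooth muscle markers to 304 to 352 and 142 to 169 CPM (5 of 6 higher). ES cell markers were higher with VB6 too, at 1023 to 1039.8 against 734 to 768 CPM (6 of 8 higher, 1 lower). Fibroblast markers summed to 47.4 to 65.6 and 23.0 to 23.3 CPM, with 2 of 6 tested higher, Fap at 0 with VB6 and Lum at 0 with vehicle. The part of these markers' cell types was not tested.

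**Figure D3:**
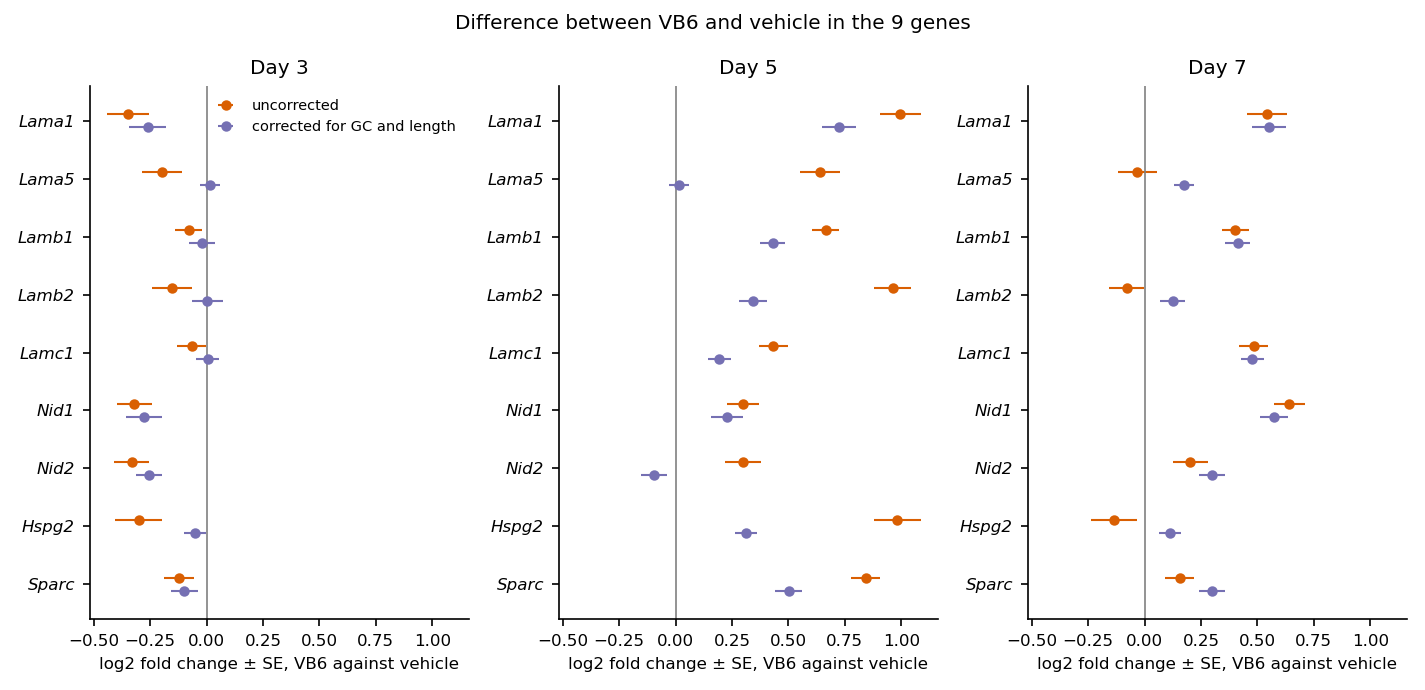
Log2 fold change with SE (horizontal axis) of VB6 against vehicle in each gene at days 3, 5 and 7, uncorrected (orange) and corrected for GC content and length (purple). At day 5 Lama5 moves from 0.64 to 0.02 and Hspg2 from 0.98 to 0.31 with the correction, while at day 7 Lama1, Lamb1 and Lamc1 hardly move.

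At day 7 the laminin-111 chains and Nid1 were higher with VB6, Nid2 passed the test only narrowly, and perlecan and the alternative chains Lama5 and Lamb2 did not differ detectably. Nid1 differed most, with 151, 157 and 144 CPM under VB6 and 94.3, 87.1 and 109 CPM under vehicle (1.56-fold, log2 0.64 ± 0.07, edgeR adjusted p = 1.8e-07). Lama1 held 711, 659 and 607 CPM and 470.2, 420.2 and 467 CPM (log2 0.54 ± 0.09, edgeR adjusted p = 4.3e-05). Lamc1 held 912, 878 and 835 CPM and 629, 584 and 665 CPM (log2 0.48 ± 0.06, edgeR adjusted p = 4.1e-06). In each of these genes the lowest VB6 library stood above the highest vehicle library.

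Lamb1 held 982, 942 and 829 CPM with VB6 and 705, 661 and 717 CPM with vehicle, again without overlap (log2 0.40 ± 0.06, edgeR adjusted p = 1.7e-05). Nid2 held 391, 386 and 343 CPM and 345, 327 and 301 CPM with overlap (log2 0.20 ± 0.08, edgeR adjusted p = 0.046), a call lost when only the 2 groups compared entered the fit (log2 0.17, edgeR adjusted p = 0.078) and without vehicle day 7 replicate 2 or 3 or VB6 day 7 replicate 1 or 2. In the corrected fit Nid2 was called higher. Sparc missed the threshold, with 1432, 1296 and 1221 CPM and 1197, 1140.2 and 1206 CPM (log2 0.16 ± 0.06, edgeR adjusted p = 0.062), although its groups did not overlap. It passed in the corrected fit (0.30 ± 0.06) and without VB6 day 7 replicate 3.

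The remaining 3 members overlapped between the arms at day 7. The 95% interval of the log2 difference was -0.20 to 0.14 for Lama5, -0.23 to 0.07 for Lamb2 and -0.34 to 0.06 for Hspg2. Of these, Lama5 was called higher in the corrected fit (0.17 ± 0.04, edgeR adjusted p = 0.0041). In all 5 of 9 were higher at day 7, against 18.6% of all genes called higher and 17.9% called lower, and the corrected fit called 7 of 9 higher against 14.5%. By limma on log2(TPM + 0.5) every member but Hspg2 was called higher, Lama5 by 0.87 and Lamb2 by 0.45 on that scale. There 6670 of 18901 genes were called higher and 1396 lower, with a median of 0.23 over all genes. The short fragments lie on the VB6 side at this day and on the vehicle side at day 5. By counts, Lama1, Lamb1, Lamc1 and Nid1 were higher with VB6 at both days in both fits. By TPM, Lamc1 and Nid1 were not called at day 5. VB6 and fragment length cannot be told apart within either day.

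Beyond the members, Fn1 (log2 0.45 ± 0.07) and Npnt (0.54 ± 0.11) were among 5 of 14 other glycoproteins that were higher with VB6 at day 7 (median 0.20 against 0.01 over all genes). Plod2 (0.70 ± 0.08) and P4ha1 (0.49 ± 0.08), hydroxylases that modify collagen chains, were among 5 of 13 enzymes (median 0.14). The laminin receptor chains Itga6 (0.36 ± 0.06) and Itgb1 (0.30 ± 0.06) were higher and 2 other receptors of 11 were lower, including Sdc1 (-0.36 ± 0.08). These receptor counts lay near the shares of all genes, 18.6% called higher and 17.9% called lower. Of the 5 collagens tested only Col18a1 was called uncorrected, and it was lower (-0.42 ± 0.11, corrected -0.14). Among endoderm regulators Dab2, Pdgfra and Sox7 were higher (log2 0.43 ± 0.07, 0.53 ± 0.09 and 0.60 ± 0.14) and 1 of 10 was lower. The corrected fit called more of the listed genes higher at this day: 8 other glycoproteins, 9 enzymes, 4 receptors, 2 collagens and 6 endoderm regulators, with 1 receptor, 1 collagen and 1 endoderm regulator lower. Over all 17418 genes in that fit, 2521 (14.5%) were called higher and 2347 lower. Parietal endoderm markers summed to 286 to 296 CPM with VB6 and 224 to 250.1 CPM with vehicle (3 of 8 higher), visceral endoderm markers to 5369 to 6746 and 4238 to 4512 CPM (3 of 8 higher, 3 lower), and ES cell markers to 322 to 368 and 443 to 483 CPM (1 of 8 higher, 4 lower). The ranges of the fibroblast markers overlapped (447 to 711 and 422 to 596 CPM, 2 of 6 tested higher, 1 lower), as did those of the smooth muscle markers (435 to 514 and 443 to 558 CPM, 1 of 6 higher, 3 lower). The part of these markers' cell types was not tested.

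Whether the VB6 difference itself changed between days was tested with interaction terms. From day 3 to day 5 it rose for 9 of 9 members, against 27.0% of all genes, most for Lama1 (log2 1.35 ± 0.13) and Hspg2 (1.28 ± 0.15) and least for Lamc1 (0.50 ± 0.09). In the corrected fit the term of Lama1 was 0.98 ± 0.11 and those of Lamc1, Nid2 and Lama5 no longer passed (0.19, 0.16 and 0.00). From day 5 to day 7 it fell for 6 of 9, against 30.8%, and rose for 1 (Nid1, 0.34 ± 0.10), against 27.0%. The largest falls were those of Hspg2 (-1.12 ± 0.15) and Lamb2 (-1.04 ± 0.11), which the correction brought to -0.20 ± 0.07 and -0.22 ± 0.08. Corrected, 4 of 9 terms were higher, against 21.3% of all genes: Nid2 (0.39 ± 0.08), Nid1 (0.35 ± 0.10), Lamc1 (0.28 ± 0.07) and Lama5 (0.16 ± 0.06, from -0.67 uncorrected). Only Hspg2 and Lamb2 were then lower (2 of 9, against 20.0%), and the median over members was -0.02, against -0.45 uncorrected. From day 3 to day 7, a pair of days that leaves out the vehicle day 5 libraries but holds the VB6 day 7 ones, the difference rose for 6 of 9, against 11.7%: Nid1 (0.96 ± 0.10), Lama1 (0.89 ± 0.13), Lamc1 (0.55 ± 0.09), Nid2 (0.53 ± 0.11), Lamb1 (0.48 ± 0.09) and Sparc (0.28 ± 0.09). For Nid1 the difference thus grew at both steps, by 0.51 and 0.35 in the corrected fit. The Sparc interaction from day 3 to day 7 passed the test on all libraries and missed it without vehicle day 3 replicate 2 or 3, vehicle day 7 replicate 2, VB6 day 3 replicate 1 or VB6 day 7 replicate 1. The day 5 libraries enter the first 2 of these terms. The 3 terms are not independent, as that from day 3 to day 7 is the sum of the other 2.

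The balance between alternative chains was followed as a share of summed TPM, since a trimer takes 1 alpha and 1 beta chain. Lama1 made up 26.8% ± 2.93 (SD, n = 3) of Lama1 plus Lama5 in ES, 28.1% ± 2.19 at vehicle day 3 and 46.5% ± 4.42 at vehicle day 7. With VB6 it made up 20.1%, 22.2% and 17.8% at day 3, 39.9%, 42.9% and 43.9% at day 5 and 45.6%, 47.5% and 46.9% at day 7. The Lama1 share was therefore low at day 3 and near parity with Lama5 by day 7 in both arms. At day 5 the share was 25.0%, 22.1% and 22.9% with vehicle, 18.9 percentage points below VB6 in the mean (exact permutation test, two-sided, p = 0.10, the smallest that 3 against 3 libraries can give). Over the 9 share comparisons this adjusts to 0.23, so none of them could pass the threshold of 0.05.

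This gap depended on the unit. With expected counts divided by the longest annotated transcript the vehicle day 5 share was 41.2%, 37.5% and 33.2% and the VB6 share 43.8%, 44.9% and 41.2%, a difference of 6.04 points. On the same scale the day 7 shares were 59.0% ± 1.76 with VB6 and 49.2% ± 1.27 with vehicle, 9.81 points apart, where TPM gave a difference of 0.133 points. The Nid2 share of both nidogens was 74.0% ± 0.838 in ES and 93.4% ± 0.501 at vehicle day 3, and then fell to 82.9% ± 3.48 at vehicle day 7 and 76.8% ± 1.85 at VB6 day 7. The day 7 difference of -6.13 points, VB6 minus vehicle (exact permutation p = 0.10, adjusted 0.23), was -5.16 points by counts per transcript. Lamb2 made up 29.1% ± 2.41 of the beta chains in ES and 14.6% ± 1.30 at vehicle day 3, and at day 7 its share was 20.1% ± 1.28 with vehicle and 17.6% ± 0.638 with VB6. The minor beta chain thus lost much of its share on leaving ES culture and made up at most 21.6% of the beta chains in any later library by TPM.

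**Figure D4:**
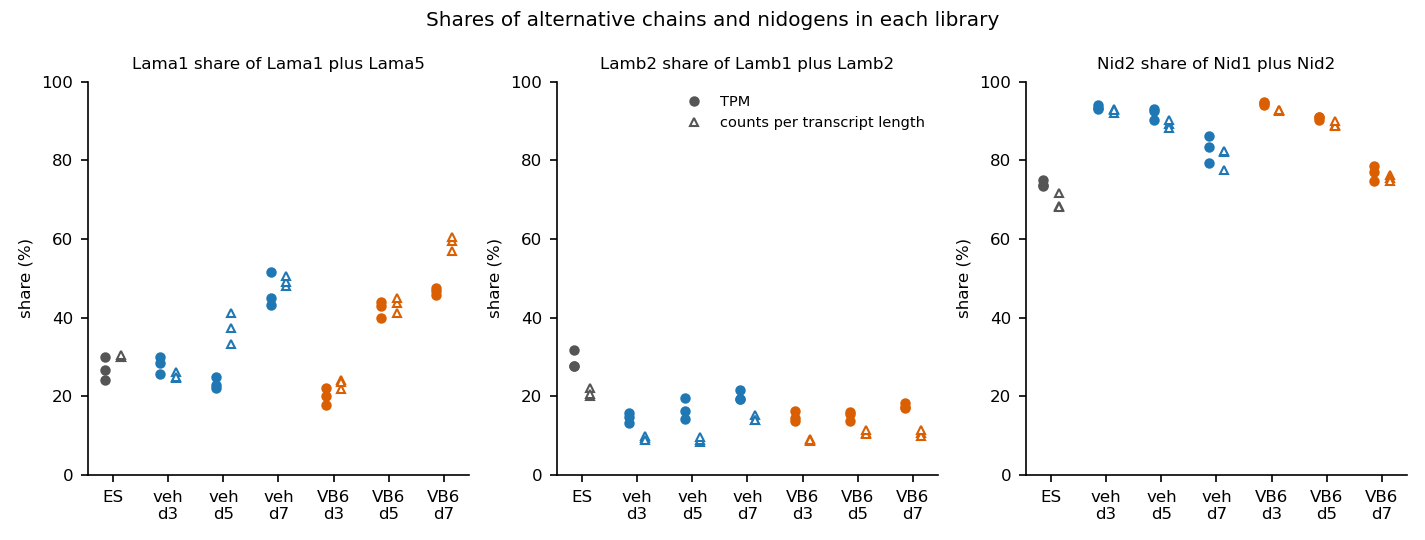
Share in percent (vertical axes, 0 to 100) of Lama1 in the alpha chains, Lamb2 in the beta chains and Nid2 in the nidogens, per library, by TPM (filled circles) and by counts per longest transcript (open triangles). The Lama1 share rises to 43.1 to 51.5% at vehicle day 7 by TPM, and for that share circles and triangles part most at vehicle day 5 and VB6 day 7.

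Lama5 carries a further limit, because its counts and its TPM disagreed on direction. By TPM, vehicle day 5 held 165, 167 and 180.2 and VB6 day 5 126, 122 and 139, while by CPM the order was the reverse (417 ± 28.0 against 650.2 ± 73.3). At day 7 TPM gave 125, 118 and 122 with vehicle and 256, 209.7 and 206 with VB6, while CPM gave 559 ± 43.5 and 547 ± 32.9. The effective length that ties the 2 units was 3848 ± 88.5 nt at vehicle day 5 and 3938 ± 325 nt at VB6 day 7, while the other groups' means ran from 5180.3 to 6367 nt. The 2 short values fall in the 2 groups with short fragments. The log2 difference between VB6 and vehicle in Lama5 was 0.64 by counts, 0.02 corrected and -0.40 by TPM at day 5, and -0.03, 0.17 and 0.87 at day 7. The sign of the Lama5 difference therefore depended on the unit at both days.

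**Figure D5:**
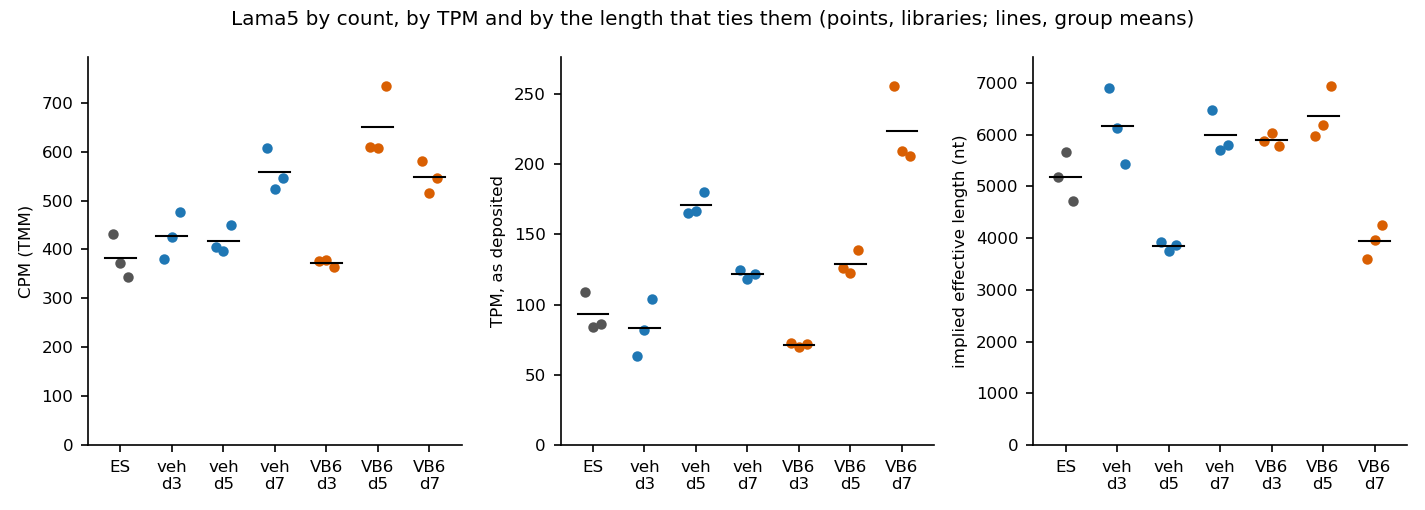
Lama5 in each library (points) with group means (lines) as CPM, as deposited TPM and as the implied effective length in nt. Vehicle day 5 and VB6 day 7 have the shortest lengths, near 3848 and 3938 nt, and there TPM is high relative to CPM.

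Across the 21 libraries the laminin-111 chains, Sparc and Lamb2 had similar profiles. These values describe libraries that share groups, day and fragment length, so they carry no test. Pearson's r of log2 CPM was 0.98 between Lama1 and Lamc1, 0.98 between Lama1 and Sparc and 0.98 between Lamb1 and Sparc. The other pairs among Lama1, Lamb1, Lamc1 and Sparc lay at 0.91 (Lamb1 and Lamc1) to 0.95, and Lamb2 stood at 0.92 to 0.93 with Sparc, Lama1 and Lamc1 and at 0.83 with Lamb1. Nid2 was the least alike, with r = -0.05 to Lamb1 and 0.09 to Sparc, and its nearest member was Nid1 (0.82). The genes outside the set with profiles most like the mean of the laminin-111 chains were Hs3st1, a heparan sulphate sulphotransferase (0.99), Wnk2 (0.98), Tpcn1 (0.98) and Tspan14 (0.98). For Sparc they were Wnk2 and Lxn (both 0.99), Sowahb (0.99) and Gpx3, the secreted glutathione peroxidase (0.99), which ran from 33.6 CPM at VB6 day 3 to 467 CPM at VB6 day 7. For Nid2 they were Leng8 (0.95), Itpr3 (0.94), Gltp (0.93) and Ctc1 (0.93), all with their highest group mean in ES. For Lama5 they were Mbtps1 (0.96), Prr5 (0.95), Ralgds (0.95) and Efs (0.95). Hs3st1 was scarce in several groups, with means of 1.33 CPM in ES, 1.17 at vehicle day 3, 2.60 at vehicle day 5 and 0.994 at VB6 day 3. Its highest mean was 19.5 CPM, at VB6 day 7.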

How the data were processed

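RNA-seq of 7 groups of 3 libraries was analysed from the authors' gene tables on mm10, per the submitters' processing notes. The sources used here name no aligner, counting tool or strand setting. The labels' protocol text speaks of a small RNA library, and the library type was not settled from the gene tables. The authors deposited expected counts (between 26.9 and 30.5% of values above 0 were not whole), and these were rounded before testing, which the design had assumed to be whole counts. The deposited TPM and FPKM values are the authors' own normalization by length and depth, and TPM were tested with limma 3.58.1 on log2(TPM + 0.5). FPKM set against counts gave the effective length of each gene. The fragment length was implied by 578 genes with a single annotated transcript, 100 counts or more and an FPKM from 3 upward in every library.

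Of 78317 gene rows, 21909 held no symbol. The gene models, lengths and GC content are those of GENCODE M21. Genes that passed edgeR's filterByExpr (18901) were normalized with TMM and tested with edgeR 4.0.16 (quasi-likelihood, R 4.3.3) in 1 fit over all 7 groups, with Benjamini-Hochberg adjustment over all genes and a threshold of 0.05. Replicate numbers were not used as a block. The corrected fit adds offsets from splines (5 degrees of freedom) of GC content and length, for 17418 genes (92.2%), all 9 members among them. Library totals of 15882380 to 21629730 expected counts mean that a count of 0 allows up to 0.139 to 0.189 CPM, and such limits cover counting error only. Shares were tested with exact permutation tests (SciPy 1.17.1, Python 3.11.15), and alternatives included DESeq2 1.42.0. The edgeR script was tested on simulated counts. Named members are all 9. From each list the 3 called genes with the smallest p and a mean of at least 1 TPM could be named, and for likeness the 4 genes with the highest Pearson's r among those of at least 5 CPM, predicted genes left out. Results for 1 listed gene are not reported here. Members and lists were chosen with earlier results of these data known.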

Additional observations from a re-analysis of the deposited data

Results flagged for a closer look

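The values here are differences between days in the log2 difference of VB6 against vehicle, tested with edgeR interaction terms, and each passed an adjusted p of 0.05. From day 3 to day 5 the difference grew by 1.35 for Lama1, 1.28 for Hspg2, 1.12 for Lamb2, 0.97 for Sparc and 0.84 for Lama5. It grew by 0.74 for Lamb1, 0.63 for Nid2, 0.62 for Nid1 and 0.50 for Lamc1. From day 5 to day 7 the term was -1.12 for Hspg2, -1.04 for Lamb2, -0.69 for Sparc, -0.67 for Lama5, -0.45 for Lama1 and -0.26 for Lamb1, against 0.34 for Nid1. From day 3 to day 7 it was 0.96 for Nid1, 0.89 for Lama1, 0.55 for Lamc1, 0.53 for Nid2, 0.48 for Lamb1 and 0.28 for Sparc.

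Nid1 and the laminin-111 chains Lama1, Lamb1 and Lamc1 passed from day 3 to day 7 in the corrected fit too, with 0.85, 0.81, 0.43 and 0.47, as did Nid2 (0.55) and Sparc (0.40). In the steps that involve vehicle day 5, whose fragments were shortest, the corrected terms of Lama5, Nid2 and Lamc1 from day 3 to day 5, and of Lama1, Lamb1 and Sparc from day 5 to day 7, missed the threshold. VB6 and fragment length cannot be told apart within days 5 and 7.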

How the results depend on the processing

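Of the members' log2 values, the alternatives in scaling, filter, tool and samples turned the sign of few. DESeq2's size factors and DESeq2 itself each turned 1 (Nid2 from vehicle day 3 to day 7, both -0.014), upper quartile scaling 2 (Nid2, -0.11 in that interval and -0.076 from day 5 to day 7), a minimum mean of 5 CPM 2 (Nid2, -0.078 and -0.059), no filter 1 (Sparc, day 3 against ES, 0.011) and a fit of only the groups compared 1 (Nid2, vehicle day 3 to day 7, -0.0022). Values called in the text did not turn under any of these. Leaving out 1 replicate turned only uncalled values: Sparc against ES ran from -0.078 to 0.046, Lama5 from vehicle day 3 to day 5 from -0.11 to 0.048, Nid2 in the vehicle steps from -0.10 to 0.040, -0.012 to 0.082 and -0.072 to 0.071, and Lama5 with VB6 at day 7 from -0.077 to 0.032. At day 3 the number of members called with VB6 ran from 0 to 4 without 1 replicate, and that of all genes from 191 to 888 (805 on all libraries, 1393 with no filter, 1991 with only the groups compared, 253 by TPM). The other lists' calls at day 3 also rested on single libraries, with 0 to 3 collagens and 0 to 3 enzymes called.

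The GC and length correction turned 16 member values, and the cause was not tested. They were Sparc against ES (0.068), Lama5 and Nid2 from vehicle day 3 to day 5 (0.30 and 0.12) and day 5 to day 7 (-0.24 and -0.42), Nid2 from vehicle day 3 to day 7 (-0.29) and Hspg2 from VB6 day 5 to day 7 (0.030). For VB6 against vehicle they were Lama5, Lamc1 and Lamb2 at day 3 (0.013, 0.0056 and 0.0030), Nid2 at day 5 (-0.10), Lama5, Hspg2 and Lamb2 at day 7 (0.17, 0.11 and 0.12), and Lama5 and Nid2 in the term from day 5 to day 7 (0.16 and 0.39). Genes called of all fell from 10716 to 6638 for VB6 at day 5, from 9070 to 4933 for the term from day 3 to day 5 and from 10910 to 7196 for that from day 5 to day 7. Same-numbered libraries were not paired by the labels, and their deviations correlated at -0.24 to 0.15. The replicate block alone turned no member value and ended 1 call, Nid2 with VB6 at day 7, which left 4 members. The replicate block with the correction turned the same 16, with values equal to those above after rounding except Sparc against ES (0.069), Hspg2 from VB6 day 5 to day 7 (0.031), Nid2 from vehicle day 3 to day 7 (-0.30) and Lama5, Lamc1 and Lamb2 with VB6 at day 3 (0.014, 0.0057 and 0.0034), and called 6630, 4891 and 7130 of all genes.

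TPM, which shift the median of all genes by 0.28 from vehicle day 3 to day 5, -0.16 from day 5 to day 7 and 0.11 over both, by 0.14 and 0.25 in the VB6 steps, and by -0.16 at day 5 and 0.23 at day 7 for VB6, turned 22 values. (Upper quartile scaling shifted the median by -0.12 from vehicle day 3 to day 7.) These were Lama5 against ES (-0.18), Lama5 and Nid2 in the vehicle steps (1.06 and 0.62, then -0.48 and -0.48), and Lama5, Nid2 and Hspg2 from VB6 day 5 to day 7 (0.79, 0.33 and 0.16). For VB6 they were Lama5, Nid2 and Lamc1 at day 5 (-0.40, -0.20 and -0.058) and Lama5, Hspg2 and Lamb2 at day 7 (0.87, 0.21 and 0.45). Between days they were Lama5, Nid2 and Lamc1 from day 3 to day 5 (-0.21, -0.025 and -0.020) and Lama5, Nid2, Lamb1, Lamb2 and Lama1 from day 5 to day 7 (1.27, 0.81, 0.35, 0.28 and 0.020). By TPM the members called were 1 at day 3, 5 at day 5, 8 at day 7 and 5 in the term from day 3 to day 5. Of all 18901 genes, 253, 9639, 8066 and 7668 were called there, and 6659 in the term from day 3 to day 7 (4360 by counts). The share of higher among called genes went from 34.9 to 22.5% at day 3, 55.1 to 31.3% at day 5 and 51.1 to 82.7% at day 7 for VB6, from 48.9 to 71.4% and 53.1 to 37.8% in the vehicle steps, from 53.1 to 67.8% and 50.0 to 75.3% in the VB6 steps, and from 56.2 to 37.1%, 46.7 to 75.3% and 50.6 to 86.3% in the terms between days. Shares also moved: the Lama1 share at day 7 ran from -1.58 to 2.62 points (VB6 minus vehicle) without 1 replicate, that of Lamb2 at day 3 from -0.47 to 0.91. By counts and by counts per transcript the Lamb2 difference was -0.43 and -0.44 at day 3 and 1.80 and 1.84 at day 5, and that of Nid2 at day 3 was -0.032 and -0.026. The fit without the vehicle day 5 and VB6 day 7 groups, which turned no value, and the shares by counts per transcript were added after the data were seen.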

Other observations

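Summed over chains in TPM, the alpha chains Lama1 and Lama5 stood at 128 ± 23.9 in ES (mean ± SD, n = 3), the beta chains Lamb1 and Lamb2 at 61.7 ± 8.12 and the gamma chain Lamc1 at 98.9 ± 6.48. At vehicle day 7 the 3 sums were 229 ± 24.6, 212 ± 12.8 and 156 ± 6.92, and at VB6 day 7 419 ± 45.1, 332 ± 27.8 and 262 ± 15.4. The beta chains, the scarcest class in ES, thus exceeded the gamma chain at day 7 in vehicle. The 2 nidogens summed to 239.9 ± 19.7 TPM in ES, 104 ± 9.72 at vehicle day 3 and 129 ± 11.1 at vehicle day 7. These sums carry no test, and TPM in vehicle day 5 and VB6 day 7 move with the short fragments described above.

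Lama3, an alpha chain outside the 9 members, stood at 1.11 TPM in ES and 0.257 at vehicle day 7.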
